A study of Rattus norvegicus with 4 samples.

Results

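The 43 genes examined here encode the enzymes that make and use glutathione, the thioredoxin and peroxiredoxin enzymes, the superoxide dismutases and catalase, and the transcription factor NRF2 with its inhibitor and marker targets. They were picked by name, with earlier results of these data already known, and each array probe carrying one of these names was followed on its own. All 43 genes were found, on 49 of the 30367 gene probes of the array. Pancreatic RNA came from male Sprague-Dawley rats put at weaning on purified diets for 3 weeks and fasted overnight before harvest. Per the labels, the iron-deficient diet (FeD) held 5 ppm iron, the iron-adequate diet (FeA) 35 ppm and the iron-overloaded diet (FeO) 20275 ppm. Per the study's methods, FeD had no added iron, FeA had ferric citrate and FeO had carbonyl iron, and all 3 diets shared the same formulation with added sucrose. The RNA of 6 rats was combined into 1 pool per diet, so single rats cannot be seen. Each of the FeD and FeO pools shared 2 arrays with the FeA pool in 2 colours, and the dyes were exchanged between array 1 and array 2.

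Glutathione is a small thiol made by glutamate-cysteine ligase and glutathione synthetase from glutamate, cysteine and glycine. Glutathione peroxidases spend it on peroxides, glutathione transferases attach it to reactive compounds, and glutathione reductase restores it. Iron can turn hydrogen peroxide into hydroxyl radical, and the pancreas is known for low levels of several of these enzymes in islet cells. NRF2, encoded by Nfe2l2, is held back by KEAP1 and, when released under oxidative stress, binds antioxidant response elements upstream of many of these genes.

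Each value below is a log2 ratio of the diet pool over the FeA pool on one array, and the mean is given ± its standard error over both arrays. As one pair of pools was measured on both, that error is technical, n is 1 pool per diet and the diets themselves were not tested. A probe was counted when it was well above background on both arrays in at least 1 of the 2 diets. Of the 43 genes, 40 passed in the FeD comparison and 42 in the FeO comparison. Gclm, which encodes the modifier subunit of glutamate-cysteine ligase, was too dim in both, and Ggt5 and Nqo1 were too dim in FeD. No spot of any of the 49 probes was saturated. Both comparisons use the FeA pool, so a deviation of that pool would enter both.

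A few antioxidant genes stood far from the FeA pool and most did not. A gene was called past 2-fold when the mean of 1 or more of its probes was at least 1 in size on the log2 scale, both arrays had that sign and no probe passed in the opposite direction. In FeD, 1 of 40 genes, Gsta5, was called lower, against 0.248% of all 15732 genes tested, and 0 were called higher, against 0.127%. In FeO, 2 of 42 genes, Gpx2 and Gsta5, were called lower, against 0.505% of 16432 genes, and 3, Mgst1, Gpx3 and Sod3, were called higher, against 0.663%. At the size criterion of the study's methods, a log2 ratio of 2, Gsta5 was lower in FeD (background 0.089% lower and 0.0191% higher), and Gpx2 and Gsta5 were lower in FeO (background 0.134% lower and 0.0609% higher). No antioxidant gene was higher at that size in either comparison. On array 1 alone, Gpx3 and Sod3 were under 2-fold in FeO and Gpx2 was past 2-fold in FeD. On array 2 alone, Gstm2 was past 2-fold in both.

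The centre of the list lay close to that of the array. The median log2 ratio of the antioxidant probes was -0.02 in FeD (44 probes) and 0.04 in FeO (46 probes), and the median of all probes tested was 0.01 in both. On single arrays the list's median ran from -0.13 to 0.07 in FeD and from -0.038 to 0.26 in FeO. With the processing used, the list's tails were wider than those of the array. The background correction compresses dim probes towards 0, and probes of like brightness were not compared. With the scanner software's processed signals, 304 of 15732 genes were past 2-fold in FeD and 671 of 16432 in FeO. The antioxidant genes past 2-fold stayed at 1 and 5. In FeD, 38 of 44 antioxidant probes (86.4%) were within 0.5 of 0 on the log2 scale, and 97.2% of all probes were. In FeO, 34 of 46 (73.9%) were within 0.5, and 94.3% of all probes were. Counting genes with the same sign on both arrays, 9 of 40 were higher (background 26%) and 11 lower (background 22.3%) in FeD. In FeO, 14 of 42 were higher (background 28.7%) and 5 lower (background 24.8%).

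**Figure D1:**
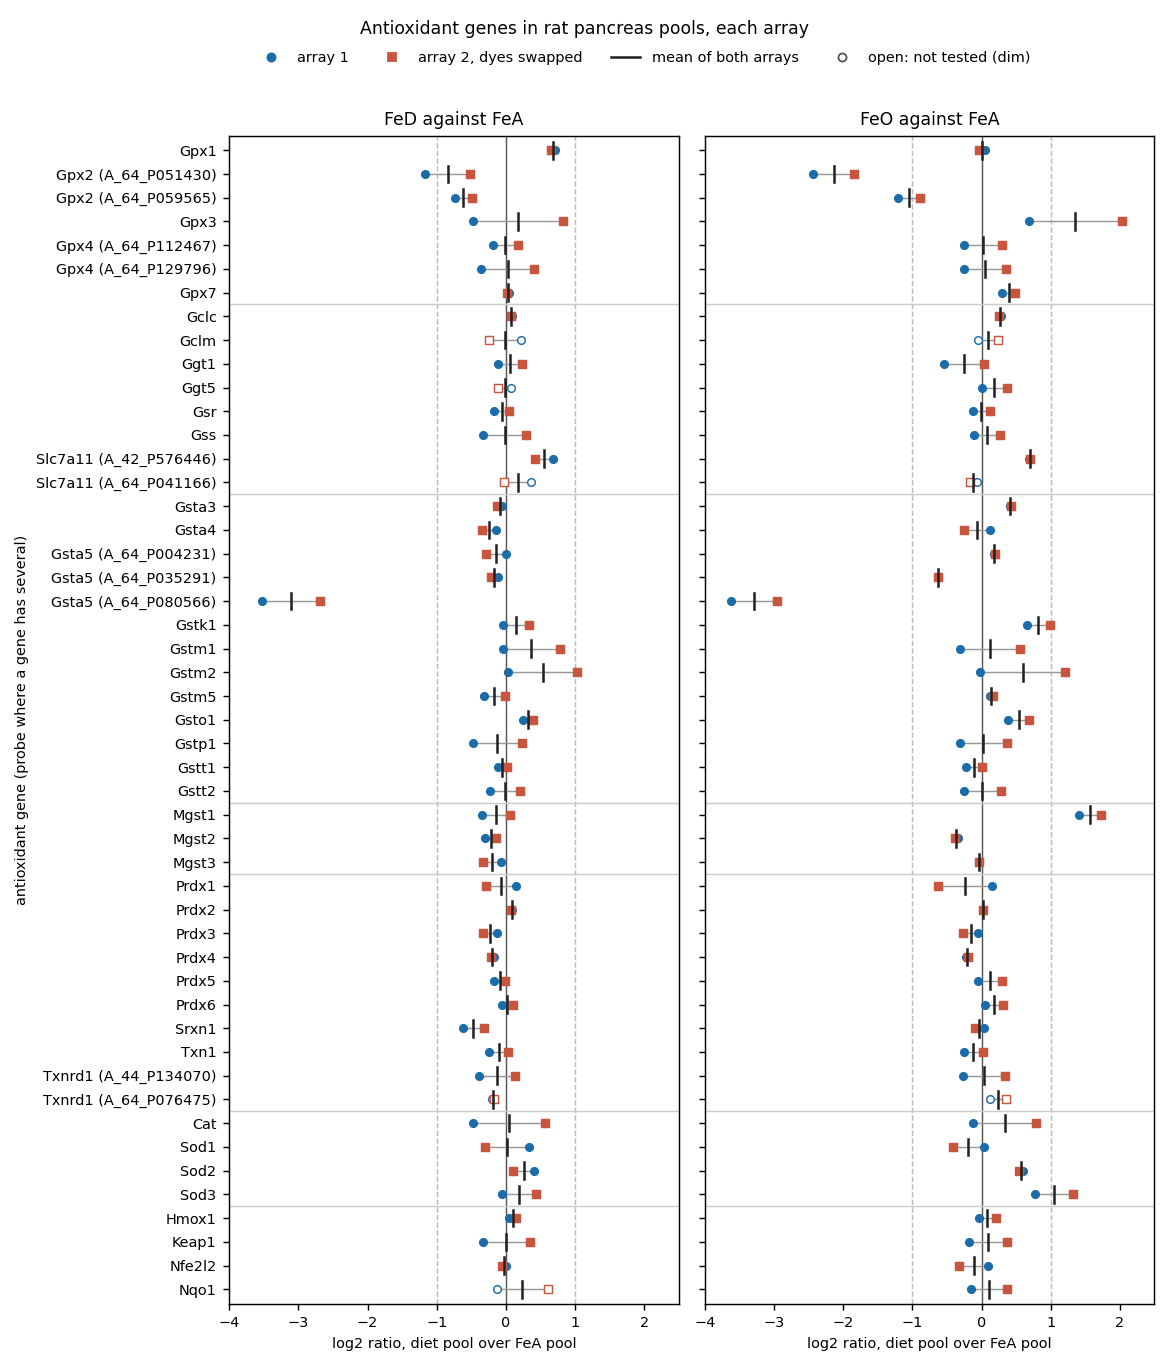
Log2 ratio of the diet pool over the FeA pool for the 49 antioxidant probes, with FeD on the left and FeO on the right. Circles are array 1, squares array 2 with swapped dyes, bars the mean of both arrays, open symbols probes too dim to be counted, dashed lines 2-fold, and grey lines part the roles of the genes. One Gsta5 probe sits near -3 in both comparisons, both Gpx2 probes are lower in both, and Mgst1, Gpx3 and Sod3 are past 2-fold higher in FeO.

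**Figure D2:**
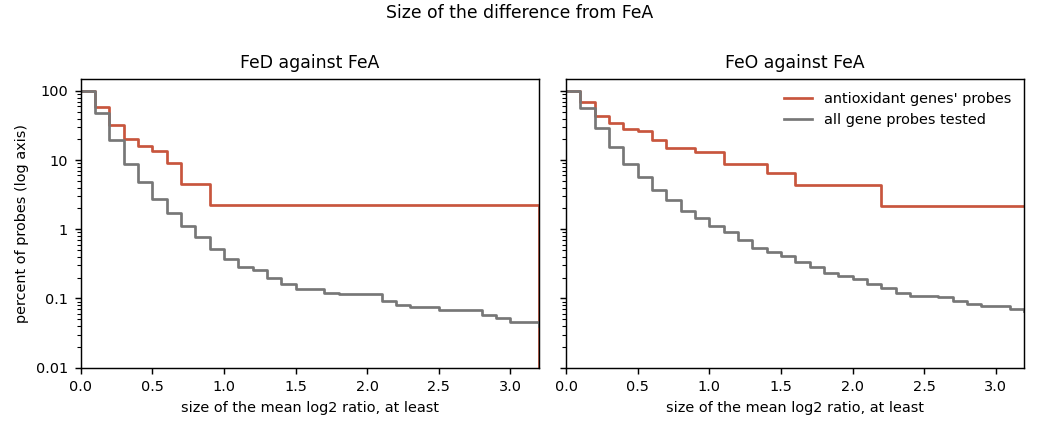
Percentage of probes (log axis) whose mean log2 ratio was at least as large in size as the value on the horizontal axis, for the antioxidant probes and for all gene probes tested. At a size of 0.5 the antioxidant probes stand at 13.6% in FeD and 26.1% in FeO, and all probes at 2.77% and 5.69%.

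The antioxidant gene with the largest difference was Gsta5, an alpha-class glutathione transferase, on probe A_64_P080566. Its normalised signal in the FeA pool was 793 and 879 on the FeD arrays and 803 and 721 on the FeO arrays. The FeD pool gave 68.6 and 136, and the FeO pool gave 65.4 and 93.2. The signals of the FeD and FeO pools were thus below every FeA signal on all 4 arrays. The log2 ratio was -3.53 and -2.69 in FeD (mean -3.11 ± 0.42, 8.63-fold lower) and -3.62 and -2.95 in FeO (mean -3.29 ± 0.33, 9.75-fold lower). The FeD pool was well above background on both arrays and the FeO pool on 1 of 2, so the size of the FeO difference is poorly set. Both low signals include the offset of 50 that the background correction adds.

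Several alpha-class transferases are close copies whose names have moved between records, so their probes are given by accession. Probe A_64_P080566 was designed for NM_001010921, named LOC494499 on the authors' list and Gsta5 by RefSeq. Probes A_64_P004231 and A_64_P035291 were designed for NM_001159739, named Gsta5 on the authors' list and Gsta3 by RefSeq. On A_64_P004231 the log2 ratio was 0.00 and -0.29 in FeD and 0.18 and 0.19 in FeO, so this transcript did not share the large difference. The dimmer A_64_P035291 had log2 ratios of -0.12 and -0.21 in FeD. In FeO this probe was on neither array well above background, and it was at least 1.51-fold lower. The 2 probes of that transcript thus had opposite signs in FeO. All 3 probes count as Gsta5 here, and the gene is not called past 2-fold when its brightest probe stands for it. The probe named Gsta3 on the authors' list was designed for NM_031509, which RefSeq names Gsta1. Its log2 ratio was -0.06 and -0.12 in FeD and 0.41 and 0.43 in FeO. Signal shared between these copies cannot be told apart on this array.

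Gpx2, the glutathione peroxidase best known from the epithelium of the gut, was lower in both diet pools on both of its probes. On probe A_64_P051430 the FeA pool read 1066 and 858 on the FeD arrays and 1069 and 845 on the FeO arrays, the FeD pool 473 and 601, and the FeO pool 198 and 236. FeA signals were the highest, FeD signals lay between, and FeO signals were the lowest, with no overlap between the pools. The log2 ratio was -1.17 and -0.51 in FeD (mean -0.84 ± 0.33) and -2.43 and -1.84 in FeO (mean -2.14 ± 0.30, 4.40-fold lower). On the dimmer probe A_64_P059565 it was -0.74 and -0.49 in FeD (mean -0.61 ± 0.12) and -1.20 and -0.90 in FeO (mean -1.05 ± 0.15, 2.07-fold lower). The 2 probes gave the same direction on all 4 arrays but different sizes in FeO.

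Many marker genes of intestinal epithelium were lower in the pools in which Gpx2 and Gsta5 were lower. Of 25 listed markers 24 were on the array and 21 were tested, and 12 of these were past 2-fold lower in each comparison, among them Fabp1, Fabp2, Apoa1, Lgals4 and Cdh17. Of all genes tested, 0.248% in FeD and 0.505% in FeO were past 2-fold lower. This and the other marker lists were drawn up with earlier results of these data known. The paper names Fabp1, Fabp2, Apoa1 and Prap1 among its most down-regulated genes in both diets, so the counts are not independent support. The list's median log2 ratio was -1.26 in FeD and -1.55 in FeO, and 18 of 21 markers in FeD and 17 of 21 in FeO were lower on both arrays. Cdx1 was higher on all 4 arrays (mean 0.16 in FeD and 0.13 in FeO). Vil1 had arrays of opposite sign in both comparisons. Means in FeD and FeO were -0.03 and -0.02 for Hnf4a, -0.12 and -0.03 for Lct, and -0.21 and -0.08 for Anpep. The summed signal of its 31 probes was 16419 to 17213 in the 4 FeA channels, 7139 and 8223 in the FeD pool, and 6301 and 7373 in the FeO pool. Of the defining markers, Mep1a, Slc15a1 and Slc5a1 did not pass the background filter in either comparison, and Fabp1, Fabp2 and Apoa1 were at background on both arrays in the FeO pool. The paper reports that Fabp1, Fabp2 and Apoa1 were below its qRT-PCR detection limit in pancreas, so their array differences were not reproduced there. The part of intestinal epithelial cells in the Gpx2 and Gsta5 values was not tested. In tissue RNA, fewer cells of a type and less RNA per cell cannot be told apart. All 4 arrays also share the 1 FeA pool. For differences seen in both diets, a high level in that pool and low levels in the diet pools cannot be told apart. Acinar markers were mostly digestive enzymes of the exocrine pancreas, with the transcription factors Ptf1a and Rbpjl among them. Their median log2 ratio was -0.04 in FeD over 12 of 12 genes and -0.44 in FeO over the 8 genes with a value on both arrays. Islet markers had a median of -0.12 in FeD and -0.77 in FeO. In FeO 7 of 8 islet genes were lower on both arrays (background 24.8%), Iapp and Ppy past 2-fold, and Gcg was past 2-fold higher.

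**Figure D3:**
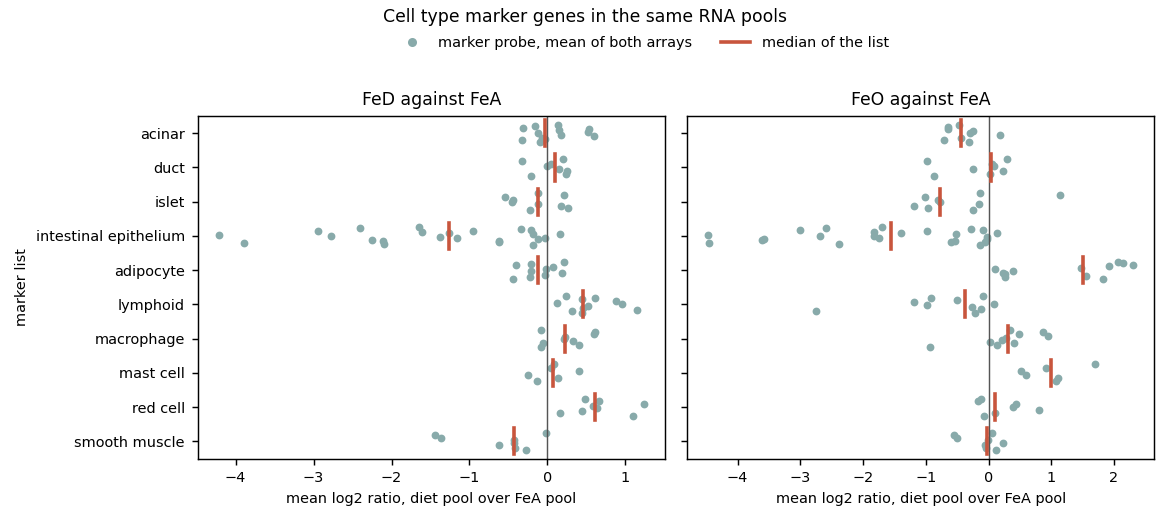
Mean log2 ratio of the diet pool over the FeA pool for the counted probes of 10 lists of cell type markers, with FeD on the left and FeO on the right. Each point is a probe and each bar the median of its list. The intestinal epithelium list has a median of -1.26 in FeD and -1.55 in FeO, and the adipocyte list -0.12 in FeD and 1.51 in FeO.

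The other glutathione peroxidases each took a course of their own. Gpx1, the widely expressed cytosolic enzyme, was higher than FeA in FeD and close to FeA in FeO, with signals of 10381 and 9391 in the FeD pool against 6339 and 5963 in FeA. Its log2 ratio was 0.71 and 0.66 in FeD (mean 0.68 ± 0.03, 1.61-fold) and 0.05 and -0.04 in FeO (mean 0.01 ± 0.05). Red cell markers were higher in the same FeD pool, with a median log2 ratio of 0.61, 5 of 5 tested genes higher on both arrays, and Alas2 and Slc4a1 past 2-fold. Their median in FeO was 0.11. Over the 7 of 8 red cell probes with a value in every channel, the summed signal was 61718 and 64577 in the FeD pool against 51988 and 53183 in FeA, and 64822 and 64030 in the FeO pool against 56110 and 57340 in FeA. The probe left out, A_64_P032499 of alpha-globin, was the brightest, at 149567 and 148444 in the FeD pool against 100034 and 99248 in FeA. On the FeO array with a value, it was at 130214 in the FeO pool against 125826 in FeA. Lymphoid markers were also higher in FeD, with a median of 0.46, 10 of 11 genes higher on both arrays and Glycam1 past 2-fold, and their median in FeO was -0.38. Macrophage markers had medians of 0.22 in FeD, where 6 of 8 genes were higher on both arrays, and 0.31 in FeO. Of all genes tested in FeD, 26% were higher on both arrays and 0.127% were past 2-fold higher. The part of these blood and immune cells in the Gpx1 value was not tested.

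Gpx3, the secreted peroxidase of plasma, was past 2-fold higher in FeO but varied most between arrays. Its signal was 371 and 594 in the FeO pool against 232 and 146 in FeA, and 174 and 320 in the FeD pool against 242 and 180 in FeA. The log2 ratio was 0.68 and 2.03 in FeO (mean 1.35 ± 0.67, 2.56-fold) and -0.48 and 0.83 in FeD (mean 0.18 ± 0.65). Both FeO arrays were above 0, whereas the FeD arrays had opposite signs. Gpx7, a peroxidase of the endoplasmic reticulum, was at 0.30 and 0.49 in FeO (mean 0.39 ± 0.09) and at 0.05 and 0.01 in FeD. Gpx4, which reduces lipid peroxides in membranes and guards against ferroptosis, had mean log2 ratios between -0.01 and 0.05 on its 2 probes, and its arrays had opposite signs in both comparisons.

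**Figure D4:**
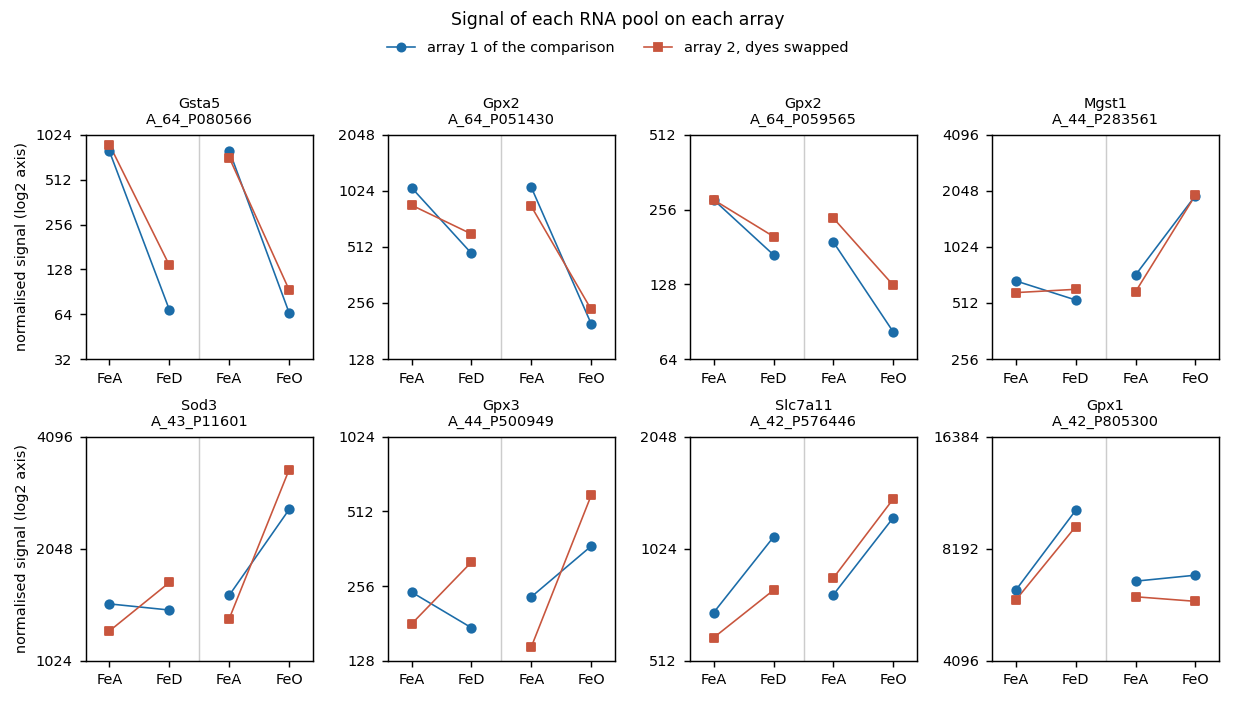
Normalised signal (intensity units after normalisation within and between arrays, log2 axis) of each pool for 8 probes of 7 antioxidant genes. Each line joins the FeA pool and the diet pool on one array, circles being array 1 and squares array 2 with swapped dyes, and levels are not comparable between panels. Gsta5 and Gpx2 are lower in both diet pools, Mgst1 and Sod3 are higher in FeO, Slc7a11 is higher in both, and Gpx1 is higher in FeD.

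Among the genes that supply glutathione, Slc7a11 differed most from FeA. It encodes the transporter subunit that takes up cystine, the source of cysteine for glutathione. On probe A_42_P576446 its signal was 1101 and 792 in the FeD pool against 690 and 591 in FeA, and 1241 and 1394 in the FeO pool against 771 and 855 in FeA. It was higher than FeA on all 4 arrays. The log2 ratio was 0.67 and 0.42 in FeD (mean 0.55 ± 0.13, 1.46-fold) and 0.69 and 0.71 in FeO (mean 0.70 ± 0.01, 1.62-fold). Its second probe was at background in every pool.

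Gclc, the catalytic subunit of glutamate-cysteine ligase, was also higher on all 4 arrays but by less, at 0.08 and 0.07 in FeD and 0.28 and 0.26 in FeO (mean 0.27 ± 0.01, 1.20-fold). Ggt1, the gamma-glutamyl transferase that breaks down extracellular glutathione, was the lowest of the group in FeO, at -0.54 and 0.04 (mean -0.25 ± 0.29). Gsr, glutathione reductase, was the lowest in FeD, at -0.17 and 0.05 (mean -0.06 ± 0.11). The mean of Gss, glutathione synthetase, was -0.02 ± 0.31 in FeD and 0.08 ± 0.18 in FeO. Ggt5 was at background in the FeA pool on both FeO arrays, and the bound from its mean signals was 1.10-fold higher in FeO. Its log2 ratio was 0.01 and 0.36, so array 2 carried it and array 1 showed almost no difference.

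Of the other cytosolic and mitochondrial glutathione transferases, Gstk1 had the highest mean in FeO. This kappa-class enzyme of mitochondria and peroxisomes was at 0.65 and 0.99 in FeO (mean 0.82 ± 0.17, 1.77-fold) and at -0.04 and 0.33 in FeD (mean 0.14 ± 0.19). Gsto1, an omega-class enzyme with thioltransferase activity, was higher on all 4 arrays, at 0.25 and 0.40 in FeD (mean 0.32 ± 0.07) and 0.39 and 0.68 in FeO (mean 0.53 ± 0.15). Gstm2, of the mu class, had the highest mean in FeD, but array 2 carried it. Its log2 ratio was 0.03 and 1.03 in FeD (mean 0.53 ± 0.50) and -0.02 and 1.20 in FeO (mean 0.59 ± 0.61). The remaining transferases Gsta4, Gstm1, Gstm5, Gstp1, Gstt1 and Gstt2 had mean log2 ratios between -0.24 and 0.37 in FeD and between -0.11 and 0.14 in FeO.

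The 3 microsomal transferases are membrane proteins of one family, and one of them stood apart in FeO. Mgst1 reduces lipid hydroperoxides as well as conjugating glutathione. Its signal was 1933 and 1944 in the FeO pool against 724 and 589 in FeA, and 532 and 606 in the FeD pool against 673 and 582 in FeA. The FeO signals were above all other signals of this probe. The log2 ratio was 1.42 and 1.72 in FeO (mean 1.57 ± 0.15, 2.97-fold) and -0.34 and 0.06 in FeD (mean -0.14 ± 0.20). Mgst2, which can also make leukotriene C4, was lower on all 4 arrays, at -0.30 and -0.14 in FeD and -0.34 and -0.39 in FeO (mean -0.37 ± 0.02, 1.29-fold lower). Mgst3 was at -0.20 ± 0.13 in FeD and at -0.03 on both FeO arrays.

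Thioredoxin, its reductase, sulfiredoxin and the 6 peroxiredoxins all had mean log2 ratios within 0.5 of 0 in both comparisons, although single arrays went past that for Srxn1 and Prdx1. Srxn1, sulfiredoxin, which repairs overoxidised peroxiredoxins and is a known NRF2 target, was the lowest in FeD, at -0.63 and -0.32 (mean -0.47 ± 0.15, 1.39-fold lower), and was at 0.04 and -0.10 in FeO. Prdx4, the peroxiredoxin of the endoplasmic reticulum, was lower on all 4 arrays, at -0.18 and -0.22 in FeD and -0.22 and -0.20 in FeO. Its means of -0.20 ± 0.02 and -0.21 ± 0.01 were alike in the 2 diets. Prdx3, of mitochondria, was also lower on all 4 arrays, with means of -0.23 ± 0.10 and -0.16 ± 0.11. Prdx2 had the highest mean in FeD (0.09 ± 0.01) and Prdx6 in FeO (0.18 ± 0.13). Prdx1, the lowest in FeO, was at 0.15 and -0.63 (mean -0.24 ± 0.39), so its arrays had opposite signs.

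Superoxide dismutases turn superoxide into hydrogen peroxide, and catalase breaks that down. Sod3, the extracellular enzyme, was past 2-fold higher in FeO, with signals of 2610 and 3338 in the FeO pool against 1535 and 1329 in FeA, and 1401 and 1662 in the FeD pool against 1455 and 1231 in FeA. Its log2 ratio was 0.77 and 1.33 in FeO (mean 1.05 ± 0.28, 2.07-fold) and -0.05 and 0.43 in FeD (mean 0.19 ± 0.24). Sod2, the manganese enzyme of mitochondria, was higher on all 4 arrays, at 0.41 and 0.10 in FeD (mean 0.26 ± 0.15) and 0.60 and 0.54 in FeO (mean 0.57 ± 0.03, 1.48-fold). Sod1, the cytosolic copper-zinc enzyme, had arrays of opposite sign in both comparisons, with means of 0.01 ± 0.32 and -0.19 ± 0.22. Cat did as well, with means of 0.05 ± 0.52 in FeD and 0.33 ± 0.45 in FeO.

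Adipocyte markers were higher in the FeO pool in which Mgst1, Sod3, Gpx3 and Gstk1 were higher. Of 12 listed, 11 were on the array, and 7 of 11 tested (Adipoq, Car3, Cfd, Cidec, Fabp4, Pck1 and Retn) were past 2-fold higher in FeO, with a list median of 1.51. In FeD 0 of 10 tested were past 2-fold and the median was -0.12. Of all genes tested, 0.663% in FeO and 0.127% in FeD were past 2-fold higher. The summed signal of the 12 adipocyte probes was 42419 and 41831 in the FeO pool, 10628 and 9591 in the FeD pool and 10415 to 13330 in the 4 FeA channels. Plin1 was at background in the FeA and FeD pools and above it in the FeO pool, and the other 10 markers on the array passed the filter in both comparisons. Mast cell markers also had a higher median in FeO (1.00) than in FeD (0.07). The part of these cells in the values of Mgst1, Sod3, Gpx3 and Gstk1 was not tested.

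Of the 4 genes grouped here as NRF2 and its marker targets, none was past 0.25 in mean log2 ratio. Genes outside this group were past it, among them Srxn1, a known NRF2 target (-0.47 in FeD and -0.03 in FeO). Slc7a11 (0.55 in FeD and 0.70 in FeO) and Gclc (0.08 in FeD and 0.27 in FeO) were others. Nfe2l2 was at 0.01 and -0.05 in FeD (mean -0.02 ± 0.03) and 0.10 and -0.32 in FeO (mean -0.11 ± 0.21). Keap1 was at 0.01 ± 0.34 in FeD and 0.09 ± 0.27 in FeO, with opposite signs on the arrays of each comparison. Hmox1, heme oxygenase, which releases iron from heme and is a classical NRF2 target, was at 0.05 and 0.15 in FeD (mean 0.10 ± 0.05) and -0.04 and 0.20 in FeO (mean 0.08 ± 0.12). Nqo1, a quinone reductase used as an NRF2 marker, was at -0.15 and 0.38 in FeO (mean 0.11 ± 0.26) and too dim to count in FeD. NRF2 is regulated largely through its protein, which arrays do not measure.

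The letters of the antioxidant response element core, TGACNNNGC, were searched on both strands in the 250 bases before each RefSeq gene start (assembly GRCr8). A window was given for 35 of the 43 genes, and 8 of 39 windows of these genes (20.5%) held a match, as did 10.1% of all 33469 windows. The 8 genes were Gclm, Gpx2, Gsta3, Gstm5, Gstp1, Prdx1, Sod2 and Txnrd1, Gsta3 being the gene that RefSeq names so. Below are the matches with up to 10 bases on either side, shown because they let the genes with and without a difference be set side by side, with the matched 9 letters in capitals.
Gpx2, chr6:101230034-101230056, minus strand: acctggtttcGCTAAGTCAttct
Gclm, chr2:213031953-213031981, plus strand: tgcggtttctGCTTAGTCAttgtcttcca
Gsta3, chr9:31154962-31154988, plus strand: aactcaggcaTGACTTCGCattttttc
Gstp1, chr1:210769748-210769776, minus strand: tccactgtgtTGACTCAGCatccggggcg
Prdx1, chr5:135383761-135383789, plus strand: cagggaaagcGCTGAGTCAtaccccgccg
Sod2, chr1:50050185-50050213, minus strand: ggcgctgccgGCAGGGTCAgcgcctagct
Txnrd1, chr7:22755964-22755992, minus strand: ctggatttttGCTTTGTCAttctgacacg
Gstm5, chr2:198219646-198219674, plus strand: caaggccaagTGACCACGCggagggcggg
Gstm5, chr2:198219706-198219734, plus strand: tcagtcgcgtTGACCCCGCccacagcgtc

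Of these 8 genes, Gpx2 alone was called past 2-fold, and it was lower in FeO. Gclm was too dim to count. Gstp1 had means of -0.13 ± 0.35 and 0.02 ± 0.34, and Txnrd1 had means of -0.13 ± 0.27 and 0.03 ± 0.30 on its brighter probe. In Gpx2 the match lay at bases 13 to 5 before the start. The whole windows of the 2 genes called lower are printed for comparison, and the one of Gsta5 held no match.
Gpx2, chr6:101230034-101230283, minus strand: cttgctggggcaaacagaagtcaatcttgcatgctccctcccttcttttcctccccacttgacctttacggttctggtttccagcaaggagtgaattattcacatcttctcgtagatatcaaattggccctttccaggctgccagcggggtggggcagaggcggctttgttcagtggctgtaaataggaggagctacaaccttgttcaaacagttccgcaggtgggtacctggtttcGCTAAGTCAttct
Gsta5, chr8:87988104-87988353, plus strand: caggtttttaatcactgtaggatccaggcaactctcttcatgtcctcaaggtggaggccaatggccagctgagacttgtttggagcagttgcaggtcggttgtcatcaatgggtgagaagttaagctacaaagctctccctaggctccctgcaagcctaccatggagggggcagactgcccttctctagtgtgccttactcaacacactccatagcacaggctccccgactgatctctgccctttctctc
The windows of Mgst1 and Gpx3 held no match either. A match is a description of letters, and its absence says only that they are not in this window.

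Other genes of glutathione, thioredoxin and NRF2 metabolism were read from a separate list of 61, of which 58 were on the array. In FeD 0 of 49 tested were past 2-fold, where 0.127% of all genes were higher and 0.248% lower. In FeO 2 of 50 were higher, Cth and Chac1 (background 0.663%), and 1 was lower, Gsta2 (background 0.505%). Cth makes cysteine from cystathionine, and its log2 ratio was 0.69 and 1.56 in FeO (mean 1.13 ± 0.44) and 0.30 and 1.10 in FeD (mean 0.70 ± 0.40). Chac1, which degrades glutathione, was at 0.66 and 1.39 in FeO (mean 1.02 ± 0.36) and 0.24 and 0.70 in FeD (mean 0.47 ± 0.23). Both were higher on all 4 arrays, as Slc7a11 was. Gsta2, another alpha-class transferase, was at background in the FeO pool on both arrays and was at least 2.01-fold lower there. In FeD it was at -1.07 and -0.55 (mean -0.81 ± 0.26), with the FeD pool well above background on 1 of 2 arrays. The list's median was -0.01 in FeD and 0.09 in FeO.

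Set against each other through the FeA pool, FeO and FeD differed most at Mgst1, where the mean log2 ratio was 1.71 higher in FeO. The next were Gpx2 on its brighter probe (a difference of -1.29, lower in FeO), Gpx3 (1.18 higher), Sod3 (0.86 higher), Gstk1 (0.68 higher) and Gpx1 (a difference of -0.68, higher in FeD). The FeD and FeO pools were not hybridised together, and these differences were not tested.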

How the data were processed

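The authors deposited intensity values of Agilent Feature Extraction 10.1.1.1 per array and, per the file headers, a log10 ratio of the processed signals (red over green). Their comparison tables hold fold changes and p-values, of which only the symbol column was used. The labels number the arrays as slides 1 to 4, whereas the file headers give 1 slide and 1 scan for all 4. Median spot signals (115 to 222.5 per channel) and local backgrounds (50 to 87) were used, as the files hold no mean signals. Of 42877 spots per array, 61.9% to 71.5% were well above background (over 50% of a probe's spots for a probe), and 722 to 938 flagged spots were left out. In limma 3.58.1 (R 4.3.3), backgrounds were corrected by normexp (offset 50) and ratios by loess within arrays, spots of a probe were averaged, and the swapped array was turned. Channel signals, after Aquantile as well, include that offset. Bounds set the brighter pool's mean against the dimmer pool's, raised to the lowest signal well above background. Counting used Python 3.11.15 and pandas 2.3.3.

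Probes took the authors' symbol (22949) or the array's name (7418). The members and lists were chosen with earlier results of these data known. Described in full were members past 2-fold, the highest and lowest of each role, and Cat, Hmox1, Gpx4, Nfe2l2, Keap1, Sod1 and Sod2. The steps were tested on simulated data. The number of arrays limits the precision. Alternatives were other background corrections, centring, filters, probe choices, arrays left out, the methods' t-test and limma's test, the last 2 comparing pools and not diets.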

Additional observations from a re-analysis of the deposited data

Results flagged for a closer look

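Chance flags some of many genes, and neither difference below was tested. The probe named Gsta3 on the authors' list (A_42_P624195) was below FeA on both FeD arrays (mean log2 ratio -0.09) and above FeA on both FeO arrays (mean 0.42), a difference of 0.51. Gstm5 (A_44_P331464) did likewise, at -0.17 in FeD and 0.14 in FeO, a difference of 0.32.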

How the results depend on the processing

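Background correction, centring and the scanner software's processed signals left the called antioxidant genes as they were (1 in FeD and 5 in FeO past 2-fold). Across these settings 0 of 7 called probe values changed sign, but these were picked for their large ratios. Leaving out an array could not change the sign of a called value, as a call needs the same sign on both arrays. Of all 90 counted antioxidant values, 1 took the other sign without background subtraction and 1 with offset 0. With processed signals 6 did and with median centring 8. Without array 1, 15 did, and without array 2, 30 did. Single arrays moved the counts. FeD past 2-fold gave 2 on either array alone (Gstm2 added without array 1, Gpx2 without array 2), and FeO gave 3 to 6, with Sod3 and Gpx3 lost without array 2. Without array 1, Gpx3 passed a log2 ratio of 2 in FeO and Gpx2 did not, leaving the count at 2. The FeD median ranged from -0.13 to 0.067 and the FeO median from -0.038 to 0.26. With the brightest probe over both pools standing for a gene, Gsta5 was represented by a probe of another transcript and was lost. This left 0 in FeD at both sizes and 1 in FeO at a log2 ratio of 2. Asking for both pools above background also left 1 in FeO at that size. With the methods' t-test at its unadjusted threshold, 1084 of 17513 probes in FeD and 1465 of 18315 in FeO passed (3 and 9 antioxidant probes), and after Benjamini-Hochberg adjustment 0 passed in each, so every count was 0. limma's adjusted test kept 103 and 153 probes and, past 2-fold, 1 antioxidant gene in FeD and 3 in FeO (Mgst1, Gpx2 and Gsta5). Related genes past 2-fold, 3 as reported, were 1 without background subtraction, 7 with offset 0, 6 with processed signals, 1 with the t-test, 0 with its adjustment and 1 with limma, and these alternatives were chosen after seeing the data. Over the whole array, 59 genes past 2-fold in FeD became 155 (offset 0) and 304 (processed signals), and 192 in FeO became 399 and 671. The higher genes were 20 of 59 in FeD as reported and 148 of 304 with processed signals. Dim probes are compressed towards 0 by the offset. The cause of these changes was not tested. No paired analysis was possible because each diet is 1 pool and no test of the diets was made.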
